A study of Elaeis guineensis with 15 samples.

Results

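The response of the ripe oil palm pedicel to 3 h of ethylene was read from 2 Roche 454 libraries, P150 at 0 h and P150 after 3 h. The pedicel is the stalk tissue below the primary abscission zone (AZ), the layer of cells where the ripe fruit detaches, and P150 is pedicel sampled at 150 days after pollination (DAP), when the fruit is ripe. The comparison takes the read count of each assembled contig in both libraries and covers 37381 of the 51804 contigs of the assembly, those with a read in either library. These are 2 of the 15 libraries of the study, which also sequenced the ripe AZ (AZ150) and the immature AZ at 30 DAP (AZ30) at 0, 3, 6 and 9 h, and AZ tissue from the field that was not used here. All the 454 libraries came from tenera palms of a single clone, that is, from individuals of 1 genotype. Fruit spikelets were held in sealed boxes with 10 μl/l ethylene, and the 0 h libraries are tissue before exposure. No tissue kept for 3 h without ethylene was sequenced, so ethylene and the hours that passed cannot be told apart. Each group is 1 library, and how many bunches its RNA came from is not stated, so the tests below compare single libraries and not replicated conditions.

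Ethylene is a gaseous hormone made from S-adenosylmethionine by ACC synthase and ACC oxidase. Its receptors repress the pathway until they bind the gas, after which transcription factors of the EIN3 family, held low by F-box proteins of the EBF type, switch on ethylene response factors (ERFs) and many further genes. In ripe fruit ethylene promotes separation in the AZ, through wall-degrading enzymes, and it also induces defence proteins such as chitinases and beta-1,3-glucanases in tissue that does not separate.

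The P150 library held 221123 reads in contigs at 0 h and 200221 at 3 h, and levels are given as reads per 100000 of these totals. A single read was thus worth about the same in both libraries. The P150 libraries at 6 h (302391 reads) and 9 h (41588 reads) are given beside them for level only, because they would share the 0 h library as control. The ripe AZ libraries are shallower, with 102611 reads at 0 h and 56408 at 3 h. Contigs differ in length, which is not given, so levels are compared between libraries and never between contigs. Names were attached to 1025 contigs, and these are contigs that the study listed for their response in AZ150. The named contigs are therefore a selection made partly on rises in a neighbouring tissue, and their share of rises is no measure of the pedicel transcriptome.

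The test of Audic and Claverie asks whether the reads of a contig in 2 libraries differ by more than sampling allows. In its two-sided form, 1665 contigs differed between 0 and 3 h at an unadjusted p under 0.01. Of these, 800 were higher at 3 h (2.14% of the contigs with a read) and 865 were lower (2.31%). With TMM scaling the split was 877 and 808, so which direction had more calls depended on the processing. Among the 8486 contigs with at least 10 reads the shares were 8.99% and 9.33%. The contigs called higher went together from 7758 to 23438 reads per 100000, and those called lower from 22523 to 7811. The typical change was close to 4-fold in each direction, with a median ratio of 3.94 for the rises and a median fold of 3.73 for the falls. Changes of at least 10-fold were found for 122 rises and 79 falls. Of the rises, 97 had no read at 0 h, and of the falls 143 had no read at 3 h, where at least 8 reads in the other library were needed for a call. In the plot of the 2 libraries, called contigs of either direction ran from those with no read in the other library to those with the highest levels.

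**Figure D1:**
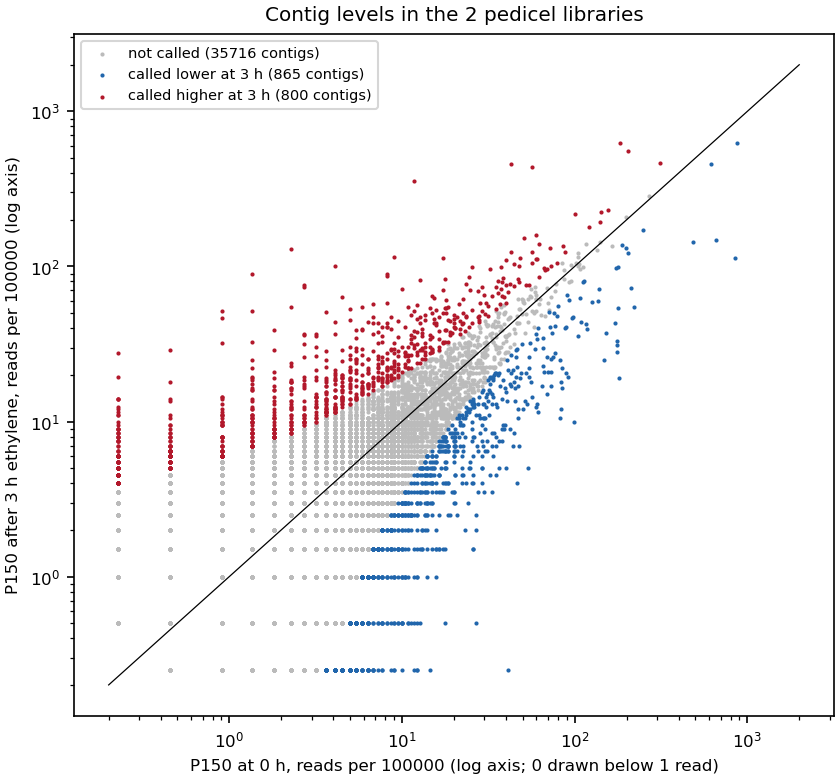
Level of each contig in the P150 library at 0 h (x axis) and after 3 h of ethylene (y axis), both in reads per 100000 on log axes, with contigs at 0 drawn below the level of 1 read. Each point is 1 contig with a read in either library, and the 800 contigs called higher and the 865 called lower lie on both sides of the diagonal.

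Contigs with a name made up a small part of the calls. Of the 994 named contigs with a read in either library, 280 rose (28.2%) and 73 fell (7.34%), against 520 rises and 792 falls among contigs with no name. The median ratio of 3 h to 0 h was 1.55 over the named contigs with at least 10 reads and 0.957 over all contigs at that depth. Counts of the gene groups below are to be read against these values. The groups were chosen by name, and their members with the most reads are described whatever their change.

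Among enzymes of ethylene synthesis, 2 of 7 contigs rose and none fell. The ACC oxidase contig CL1Contig2645 had 3 reads at 0 h and 178 at 3 h, a level of 1.36 that became 88.9 per 100000, or a ratio of 65.5 (95% interval 22.1 to 321). It stood at 186 and 264 in the P150 libraries at 6 and 9 h. ACC oxidase carries out the last step of ethylene synthesis. A further ACC oxidase contig, CL1Contig6785, rose 5.46-fold from 19 to 94 reads (interval 3.31 to 9.48) but stood lower later, at 22.5 and 7.21 per 100000. The other 4 ACC oxidase contigs were not called. CL1Contig9395 had 8 reads at 0 h and 2 at 3 h. CL1Contig11400 (0 and 4 reads), CL1Contig8039 (1 and 5) and CL1Contig8422 (1 and 5) had more at 3 h. The S-adenosylmethionine synthase contig CL1Contig23174 provides the precursor and was not called, at 53.8 and 44.0 per 100000. Intervals here and below cover counting error only.

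Of 5 contigs for ethylene perception and signalling, 2 rose and 1 fell. Both rises were of receptor contigs. CL1Contig10493 rose 1.87-fold from 33 to 56 reads (interval 1.20 to 2.97), and CL1Contig24346 rose 2.32-fold from 20 to 42 reads (interval 1.33 to 4.17), the latter named after its values were seen. The receptor EgEIN4 (CL1Contig5018) had 53 and 62 reads and was not called. The fall was of EgEIN3 (CL1Contig4369), named for the transcription factor that opens the ethylene response, from 152 to 30 reads, or 4.59-fold (interval 3.09 to 7.03). Its level of 68.7 per 100000 at 0 h became 15 at 3 h, and it stood at 38.4 and 31.3 at 6 and 9 h. The F-box contig CL1Contig6838, matched to EBF2, which targets EIN3 for degradation in Arabidopsis, stood at 60.1 and 51.9 per 100000 and was not called.

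The list of ethylene response factors had calls in both directions, with 6 rises and 5 falls among 16 contigs. Of the rises 1, CL1Contig9895, is named protein-tyrosine sulfotransferase, and without it 5 of 15 rose and 5 fell. The 4 with the most reads include 3 of the falls. CL1Contig3535 fell 1.64-fold, from 174 to 96 reads, CL1Contig5158 fell 2.19-fold, from 145 to 60 reads, and CL1Contig8702 fell 2.39-fold, from 108 to 41 reads. Of the contigs named ethylene-responsive transcription factor 4, CL1Contig3535 and CL1Contig5158 fell, while CL1Contig15917 and CL1Contig19481 rose. CL1Contig15917, which the sources match to CBF4/DREB1D, rose 1.77-fold from 70 to 112 reads (interval 1.30 to 2.42). CL1Contig19481, named after its values were seen, had 24 and 61 reads. The larger falls of the group were those of EgERF18 (CL1Contig10002), from 61 to 7 reads, and of CL1Contig6692, from 105 to 14 reads, both named here after their values were seen. Their median ratio was 1.61 over 15 contigs with at least 10 reads, the depth at which every group median below is taken (1.5 without CL1Contig9895), against 1.55 for all named contigs.

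In the group of NAC, MYB, bHLH, bZIP and WRKY contigs, families tied to senescence, defence and stress, 14 of 27 rose and 1 fell, with a median ratio of 2.81. The list also took in 2 LOB domain contigs, a rise (CL1Contig6183, 8 and 27 reads) and the only fall (CL1Contig1025, 27 and 6 reads), and without them 13 of 25 rose and none fell. CL1Contig4513, a probable WRKY factor, rose 3.92-fold from 56 to 199 reads, and the WRKY contig CL1Contig12932 rose 3.29-fold from 52 to 155. At 6 h they stood at 25.1 and 33.1 per 100000, near their levels of 25.3 and 23.5 at 0 h. The bZIP factor EgBZIP53 (CL1Contig11193) rose 2.42-fold, and the NAC contig CL1Contig6588 rose 2.16-fold from 19.9 to 43.0 per 100000 and stood at 49.6 and 89.0 later.

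The named rise with the smallest p was a gibberellin 2-oxidase contig (CL1Contig25316), an enzyme class that inactivates gibberellins. It had 26 reads at 0 h and 716 at 3 h, a level of 11.8 that became 358 per 100000 and a ratio of 30.4 (interval 20.6 to 46.9). The level was 50.6 at 6 h and 279 at 9 h. In the group for gibberellin, abscisic acid and cytokinin, 3 of 10 contigs rose and none fell. The other rises were of protein phosphatases 2C, a class that includes brakes on abscisic acid signalling. CL1Contig3515 rose 5.37-fold from 15 to 73 reads and CL1Contig14325 rose 2.07-fold from 56 to 105, while EgAP2C1 (CL1Contig15876), a phosphatase of the same family, was not called at 66 and 39 reads.

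Auxin contigs moved in both directions, 5 up and 4 down of 11. EgPILS6 (CL1Contig25900), of a family of auxin carriers in the endoplasmic reticulum, had 1 read at 0 h and 58 at 3 h, which gives a ratio of 64.1 with a wide interval of 11.1 to 2573. No read of it was found in the P150 libraries at 6 and 9 h. A contig of the auxin efflux carrier family (CL1Contig23162) rose 2.34-fold from 42 to 89 reads. EgSAUR21 (CL1Contig6040), named both as an ARM repeat superfamily protein and as small auxin up RNA 21, rose 1.37-fold from 138 to 171. Auxin response factor 8-1 (CL1Contig9108), a transcription factor, fell 2.34-fold from 101 to 39 reads. The other falls were of 2 auxin-repressed protein contigs and the repressor EgIAA27. CL1Contig4409 had 51 and 4 reads, CL1Contig15858 had 17 and 3, and EgIAA27 (CL1Contig1153) also had 17 and 3. The other rises were of an IAA-amino acid hydrolase (CL1Contig22762), an enzyme that releases auxin from its conjugates, with 14 and 44 reads, and of EgGH3.5 (CL1Contig6277), of a family that makes such conjugates, with 0 and 24 reads, or at least 8.84-fold. These last 5 were named after their values were seen.

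Of 8 jasmonate contigs, 3 rose and none fell. The lipoxygenase EgLOX5 (CL1Contig9110) rose 2.94-fold from 38 to 101 reads, and the jasmonate ZIM-domain contig CL1Contig11124, of a family of jasmonate repressors, rose 2.03-fold from 63 to 116. Both were low at 6 h, EgLOX5 with no read at all and CL1Contig11124 at 6.61 per 100000. A further lipoxygenase (CL1Contig8074, 33 and 51 reads) and a further ZIM-domain contig (CL1Contig7676, 53 and 30 reads) were not called.

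Enzymes that cut beta-1,3-glucan and chitin formed the group with the highest share of rises among the 27 groups. Of 14 contigs, 12 rose and none fell, the median ratio was 10.7, and the summed level went from 359.5 to 2023 per 100000. Chitinase CL1Contig23312 rose from 95 to 923 reads, or 10.7-fold (interval 8.68 to 13.4). Endochitinase CL1Contig10109, matched to the pathogenesis-related protein PR3, rose from 5 to 258 reads, or 57.0-fold (interval 24.1 to 177). The chitinase fragment CL1Contig4209 rose from 20 to 230 reads, or 12.7-fold (interval 8.03 to 21.2). Chitinases attack a polymer that plants lack and fungal walls contain. The beta-1,3-glucanase contigs, which act on callose and on fungal glucan, had the most reads of the group. CL1Contig7306 rose 3.39-fold from 406 to 1246 reads (interval 3.03 to 3.80) and CL1Contig5672 rose 7.73-fold from 125 to 875 (interval 6.4 to 9.4). The group as a whole stood at 1870 per 100000 at 6 h and at 4335 at 9 h.

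Thaumatins and other defence proteins rose in 11 of 17 contigs and fell in none, with a median ratio of 8.84. Their summed level was 83.2 at 0 h and 436 at 3 h, and 697 and 1412 in the later libraries. The contig with the most reads was CL1Contig6331, a thaumatin-like protein that rose 1.90-fold from 88 to 151 reads. Thaumatin-like contig CL1Contig549 rose 27.2-fold from 6 to 148 reads (interval 12.2 to 75.4). Thaumatin-like proteins belong to the pathogenesis-related family PR5. CL1Contig8178, named blight-associated protein P12 and matched to the expansin-like gene EXLB2, rose 24.9-fold from 9 to 203 reads (interval 12.9 to 55.3) and stood at 162 and 628 per 100000 at 6 and 9 h. CL1Contig7757, a BRI1-KD interacting protein, rose 6.99-fold from 15 to 95 reads. The 3 contigs with the P12 name were placed both here and with the wall proteins.

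**Figure D2:**
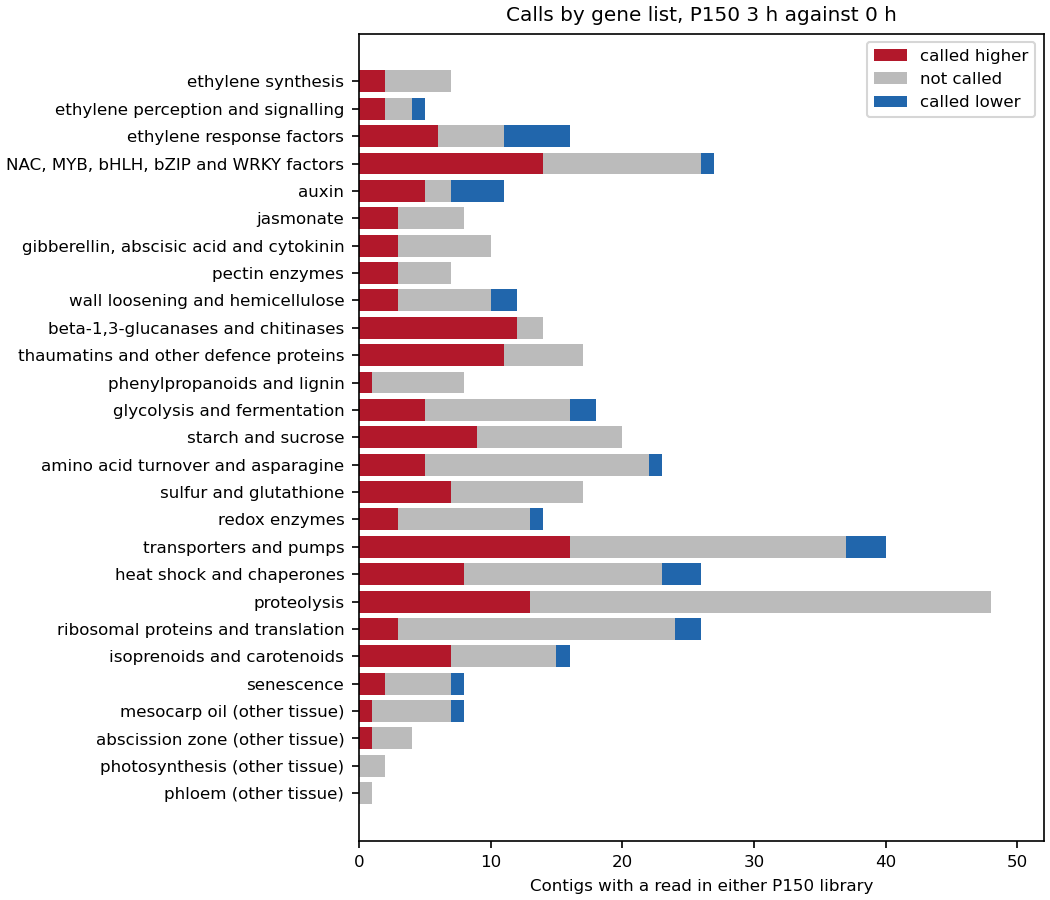
Number of contigs with a read in either P150 library (x axis) in each of the 27 gene groups (y axis), split into those called higher at 3 h, not called and called lower. The 12 of 14 beta-1,3-glucanases and chitinases and the 11 of 17 thaumatins and other defence proteins form the largest shares called higher, and ethylene response factors and auxin contigs have calls of both directions.

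Enzymes of pectin, the polymer that glues plant cells together, rose in 3 of 7 contigs with a read, and 4 further members had no read in either library. The pectin acetylesterase contig CL1Contig2129, of an enzyme class that removes acetyl groups from pectin, rose 14.1-fold from 8 to 102 reads (interval 6.88 to 33.5). The beta-galactosidase CL1Contig3577 rose 3.52-fold from 54 to 172 reads, and its level of 85.9 per 100000 at 3 h stood against 1882 at 6 h and 1046 at 9 h. Its course gave most of the summed level of the pectin group, which was 37.1, 166, 2036 and 1335 at 0, 3, 6 and 9 h. Polygalacturonase-type contig CL1Contig8622 rose from 3 to 35 reads, a ratio of 12.9 (interval 4.06 to 65.5). The beta-galactosidase CL1Contig8666 had 10 reads in each library and stood at 40.7 per 100000 at 6 h.

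Of 12 contigs for wall loosening and hemicellulose, 3 rose and 2 fell. Beside 2 P12 contigs, the rise was of a cellulose synthase-like protein (CL1Contig24120), from 14 to 88 reads or 6.94-fold. The cellulose synthase CL1Contig12538, which makes the load-bearing polymer of the wall, fell 7.89-fold from 183 to 21 reads (interval 5.01 to 13.1). Its level was 82.8 at 0 h, 10.5 at 3 h, 67.8 at 6 h and 12.0 at 9 h. A xyloglucan endotransglucosylase/hydrolase (CL1Contig17330), which cuts and rejoins xyloglucan, fell 1.39-fold from 157 to 102 reads, a call lost with TMM scaling and with totals of all reads, which leave 1 fall in this list. Of 8 phenylpropanoid and lignin contigs 1 was called, the cinnamoyl-CoA reductase-like CL1Contig13368, which rose 2.06-fold from 30 to 56 reads. Not called were cinnamate-4-hydroxylase CL1Contig9188 (13 and 20 reads), a further reductase-like contig CL1Contig9156 (8 and 18) and cinnamyl alcohol dehydrogenase CL1Contig15756 (8 and 2).

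In sugar metabolism, 9 of 20 starch and sucrose contigs rose and none fell. Sucrose synthase, which splits sucrose for use in the cell, was represented by several contigs. CL1Contig13612 rose 2.75-fold from 448 to 1115 reads (interval 2.46 to 3.07), and CL1Contig4716 rose 2.04-fold from 52 to 96. They differed later, CL1Contig13612 standing at 177 and CL1Contig4716 at 357 per 100000 at 6 h. The beta-amylase CL1Contig13363, matched to BAM1, a starch-degrading enzyme, rose 11-fold from 18 to 180 reads (interval 6.79 to 19.1) and stood at 598 per 100000 at 6 h. A sucrose transporter-like contig (CL1Contig8107) rose 1.35-fold from 174 to 212 reads. CL1Contig22438, a hexose carrier matched to STP6, rose 6.63-fold from 38 to 228 reads (interval 4.68 to 9.61), with a level of 17.2 at 0 h, 114 at 3 h and 14.9 at 6 h.

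Glycolysis and fermentation gave 5 rises and 2 falls among 18 contigs. Of 2 aldolase contigs, CL1Contig15132 rose 2.79-fold from 40 to 101 reads and EgFBA6 (CL1Contig16770) rose 1.84-fold from 39 to 65. Enolase CL1Contig1598 fell 1.41-fold from 252 to 162 reads, a call lost with totals of all reads. The other fall was of phosphofructokinase 3 (CL1Contig10131), from 49 to 17 reads, named after its values were seen. Glyceraldehyde-3-phosphate dehydrogenase (CL1Contig26302), a standard housekeeping enzyme, had 310 and 290 reads and was not called.

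Sulfur and glutathione contigs rose in 7 of 17 cases and fell in none, with a median ratio of 2.84. Sulfite reductase (CL1Contig8488), which makes sulfide, rose 2.31-fold from 99 to 207 reads. Cysteine synthase (CL1Contig9995), which fixes sulfide into cysteine, rose 4.73-fold from 39 to 167. EgGSH1 (CL1Contig6289), glutamate-cysteine ligase, which starts glutathione synthesis, rose 8.39-fold from 15 to 114 (interval 4.88 to 15.5). Other contigs of the same route were not called, among them adenosine 5'-phosphosulfate reductase (CL1Contig4462, 55 and 42 reads) and a further cysteine synthase (CL125Contig2, 10 and 1 reads), both named after their values were seen. The sulfate transporter EgSULTR3;5 (CL1Contig9617), named after its values were seen, had 2 and 64 reads, a ratio of 35.3 (interval 9.39 to 298). Adenosylhomocysteinase (CL1Contig18961) was not called at 67 and 55 reads.

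Amino acid turnover gave 5 rises and 1 fall among 23 contigs. Glutamine synthetase (CL1Contig11092) had 86 and 99 reads, asparagine synthetase (CL1Contig10891) 61 and 70, and aspartate aminotransferase (CL1Contig7693) 82 and 77, none of them called. The fall was of the tyrosine aminotransferase EgTAT7 (CL1Contig16170), an entry enzyme of tyrosine breakdown, from 327 to 50 reads or 5.92-fold (interval 4.39 to 8.14). The summed level of the group was 319 at 0 h and 335 at 3 h, and 1054 at 6 h. A sum without EgTAT7, the only member called lower, was added after seeing the data. That sum was 171 at 0 h and 310.2 at 3 h. Leaving out a fall raises the 3 h sum relative to 0 h by construction.

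Transporters and pumps rose in 16 of 40 contigs and fell in 3. The contig with the most reads was a plasma membrane proton pump, of a class that energises uptake and acidifies the wall. This H-ATPase, CL1Contig1862, rose 2.16-fold from 222 to 434 reads (interval 1.83 to 2.55), and EgHA2 (CL1Contig19906) rose 1.84-fold from 134 to 223. The phosphate transporter EgPHT1;1 (CL1Contig16087) was not called at 192 and 165 reads. The falls were of an aquaporin, a tonoplast intrinsic protein and a peptide transporter. Another aquaporin, CL1Contig20991, rose from 154 to 193 reads. Aquaporins CL1Contig4779 (10 and 1 reads) and CL1Contig5368 (9 and 3 reads) were not called. All of these were named after their values were seen.

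Heat shock proteins and chaperones gave 8 rises and 3 falls among 26 contigs. The contig CL1Contig12685, matched to HSP70, rose 1.5-fold from 687 to 931 reads (interval 1.35 to 1.65), and its levels of 311 and 465 per 100000 stood against 57.2 at 6 h and 48.1 at 9 h. CL1Contig14501 rose 2.68-fold from 132 to 320 and CL1Contig4584 rose 1.39-fold from 310 to 389. The summed level of the group was 1220 at 0 h and 1618 at 3 h, and 823 and 736 later. HSP90 (CL1Contig11003) was not called, at 437 and 420 reads. For proteolysis, 13 of 48 contigs rose and none fell. The E3 ubiquitin ligase EgXBAT33 (CL1Contig8967), of a type that tags proteins for degradation, rose 28.0-fold from 6 to 152 reads (interval 12.6 to 77.4). The group's contig with the most reads, ubiquitin CL1Contig18802, rose 1.47-fold from 347 to 462, and the cathepsin B-like protease CL1Contig8320 rose 1.58-fold from 315 to 450. Next in reads, cathepsin F contig CL1Contig9147 (148 and 96 reads) and F-box contig CL1Contig6838 (133 and 104) were not called.

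Ribosomal proteins and translation moved least among the groups of over 20 contigs, with 3 rises and 2 falls among 26 contigs and a median ratio of 1.03. The translation initiation factor 1A contig CL1Contig1138 fell 2.68-fold from 154 to 52 reads, and the elongation factor CL1Contig12052 fell 1.37-fold from 417 to 276. EgRPS5B (CL1Contig3782), a ribosomal protein, was not called at 36 and 43 reads. Nor was the translation initiation factor 5A contig CL1Contig2516, at 73 and 74 reads. Of 14 redox contigs 3 rose and 1 fell, among them the metallothionein-like protein type 3 CL1Contig5452, a small metal-binding protein, up 2.35-fold from 107 to 228 reads. Another metallothionein-like contig, CL1Contig15883, fell 5.10-fold from 186 to 33 reads. The monodehydroascorbate reductase-like CL1Contig24241 (86 and 51 reads) and the thioredoxin/protein disulfide isomerase CL1Contig2667 (60 and 45) were not called.

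Isoprenoid and carotenoid contigs rose in 7 of 16 cases and fell in 1. The carotene beta-hydroxylase CL1Contig2343, which makes xanthophylls, had 2 and 29 reads, a ratio of 16 (interval 4.05 to 138). In the cytosolic route to isoprenoids and sterols, hydroxymethylglutaryl-CoA reductase (CL1Contig2864) rose 3.39-fold from 14 to 43 reads and squalene monooxygenase (CL1Contig2603) rose 2.58-fold from 12 to 28. In the plastid route, the last enzyme, 4-hydroxy-3-methylbut-2-enyl diphosphate reductase (CL1Contig15598), fell from 84 to 28 reads, while the entry enzyme, 1-deoxy-D-xylulose 5-phosphate synthase (CL1Contig9075, named after its values were seen), rose from 0 to 18 reads. Senescence-associated contigs gave 2 rises and 1 fall among 8. CL1Contig9362 rose 4.97-fold from 18 to 81 reads and EgERD1/SAG15 (CL1Contig7865), a chloroplast protease subunit, rose 4.61-fold from 17 to 71, while CL1Contig7720 fell 2.55-fold from 62 to 22. CL1Contig776 (18 and 14 reads) was not called.

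The named falls were led by a ketol-acid reductoisomerase (CL1Contig15155), an enzyme of branched-chain amino acid synthesis. It fell from 1454 to 296 reads, or from 658 to 148 per 100000, a 4.45-fold fall (interval 3.92 to 5.06), and stood at 266 and 238 in the later libraries. A bromodomain-containing protein (CL1Contig13286), of a class that reads acetylated histones, fell 5.65-fold from 387 to 62 reads. A zinc finger CCCH contig (CL1Contig14415) fell 4.71-fold from 203 to 39, and a single-stranded nucleic acid-binding protein (CL1Contig612) fell 4.31-fold from 162 to 34. EgTCTP2 (CL1Contig16133), a translationally controlled tumour protein linked to growth in plants, fell 2.73-fold from 256 to 85. Fiber protein Fb2 (CL1Contig13758) went from 487 to 110 reads, the leucine zipper and W2 domain contig CL1Contig4330 from 466 to 145, and the proline-rich protein CL1Contig11940 from 136 to 23. The lowest of the 4 P150 levels was at 3 h for each of the 12 named falls but the zinc finger CCCH contig. That contig stood at 17.9 at 6 h against 19.5 at 3 h. The 12 were picked for a low 3 h count against 0 h, so a lowest level at 3 h was favoured by the choice. Among contigs without a name, CL1Contig19844 fell 7.48-fold from 1876 to 227 reads, and CL1Contig26135, listed with a noncoding RefSeq transcript, fell 3.38-fold from 1076 to 288. The unnamed rises with the smallest p were CL1Contig24432, from 11 to 107 reads, and CL1Contig22508, from 3 to 103.

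**Figure D3:**
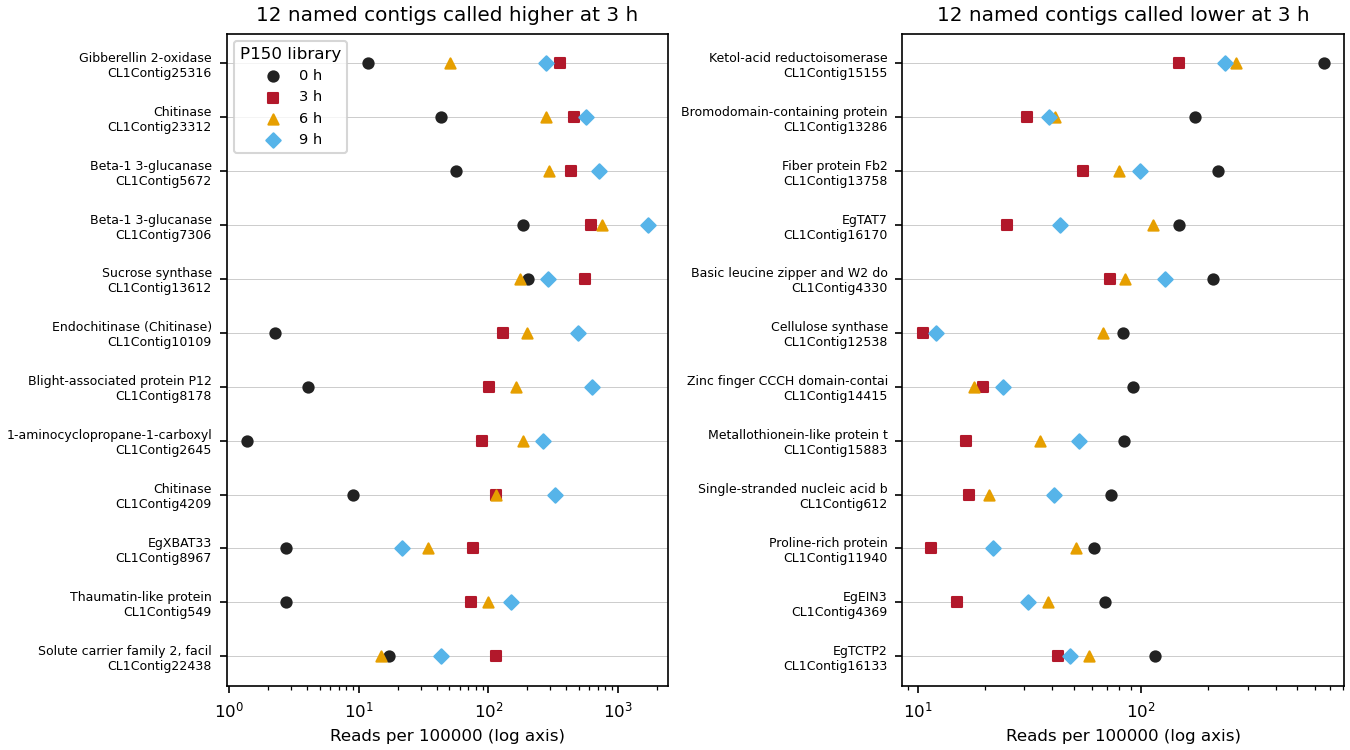
Level of the 12 named contigs called higher (left) and the 12 called lower (right) at 3 h with the smallest p, in reads per 100000 on a log axis, with 1 point for each P150 library at 0, 3, 6 and 9 h. For the glucanases, chitinases and ACC oxidase the 9 h point lies farthest right, for sucrose synthase and the solute carrier the 3 h point does, and the 9 h library is the smallest with 41588 reads.

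Against a spread estimated across libraries the calls were far fewer. With 1 library per group, that spread also holds responses that differ between tissues and is not variation between replicates. A fit in edgeR that took the variation between libraries from tissue and time as additive terms (common biological coefficient of variation 0.474) called 18 of 10762 contigs at a Benjamini-Hochberg adjusted p under 0.05. Of these 16 were higher (0.149%) and 2 lower (0.0186%), all called in the same direction by the Audic and Claverie test, and 781 contigs had an unadjusted p under 0.05. The named contigs among them were 14. The gibberellin 2-oxidase, the ACC oxidase CL1Contig2645, the endochitinase CL1Contig10109, the P12 contig CL1Contig8178, EgXBAT33, the thaumatin-like CL1Contig549 and EgPILS6 have been described. The other 7 were named because they passed this test. Cystathionine gamma-lyase (CL1Contig18448), an enzyme of methionine breakdown, had 2 and 104 reads, a ratio of 57.4 (interval 15.5 to 480.5). A beta-1,3-endoglucanase (CL1Contig11305) had 2 and 93 reads, a ratio of 51.4 (interval 13.8 to 430.3), and stood at 156 per 100000 at 9 h. The remaining 5 had no read at 0 h, where 3 reads were taken as the floor. A potassium transporter (CL1Contig11441) with 55 reads at 3 h was at least 20.2-fold higher, and EgThaumatin PR (CL1Contig8813) with 39 reads at least 14.4-fold. EgPECP1 (CL1Contig11537), a phosphatase of phosphoethanolamine and phosphocholine, and a phosphatidylinositol/phosphatidylcholine transfer contig (CL1Contig9313) each had 28 reads, at least 10.3-fold. A carotene beta-hydroxylase (CL1Contig10378) had 25 reads, at least 9.20-fold. Of the contigs with no name, CL1Contig22781 had 91 reads at 0 h and none at 3 h, at least 27.5-fold lower, and CL1Contig16397 had 59 and 1. CL1Contig1005 had 0 and 28 reads, and CL1Contig22508 completes the 18.

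AZ150 libraries at 0 and 3 h gave 369 contigs higher (1.44% of 25614 with a read) and 238 lower (0.929%), a split that became 303 and 343 with TMM scaling. Of the pedicel rises, 206 were also called higher in AZ150, which is 25.8% of the P150 list and 55.8% of the AZ150 list, and 6 were called lower there. Of the pedicel falls, 130 were also lower in AZ150, 15% of the P150 list and 54.6% of the AZ150 list, and 1 was higher. AZ30 gave 122 higher (0.491% of 24860) and 553 lower (2.22%), a split that became 419 and 182 with TMM scaling, and its 0 h library held only 26560 reads. It shared 65 rises with the pedicel (8.12% of the P150 list, 53.3% of the AZ30 list) and 72 falls (8.32% and 13%), with 14 pedicel rises called lower and 6 pedicel falls called higher in AZ30. Contigs with many reads can be called more readily in any tissue, and the P150 libraries are the deepest of the 3 pairs. Chitinase CL1Contig23312, which rose from 43.0 to 461 per 100000 in the pedicel, rose from 47.8 to 587 in AZ150. The ACC oxidase CL1Contig2645 rose from 44.8 to 546 in AZ150, so its level in the pedicel at 3 h was nearer the AZ150 level before treatment than after it. EgEIN3 (CL1Contig4369) fell in AZ150 as well, from 50.7 to 17.7 per 100000. These contigs carry names because the study listed them for a response in AZ150, so their change there was favoured in advance.

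**Figure D4:**
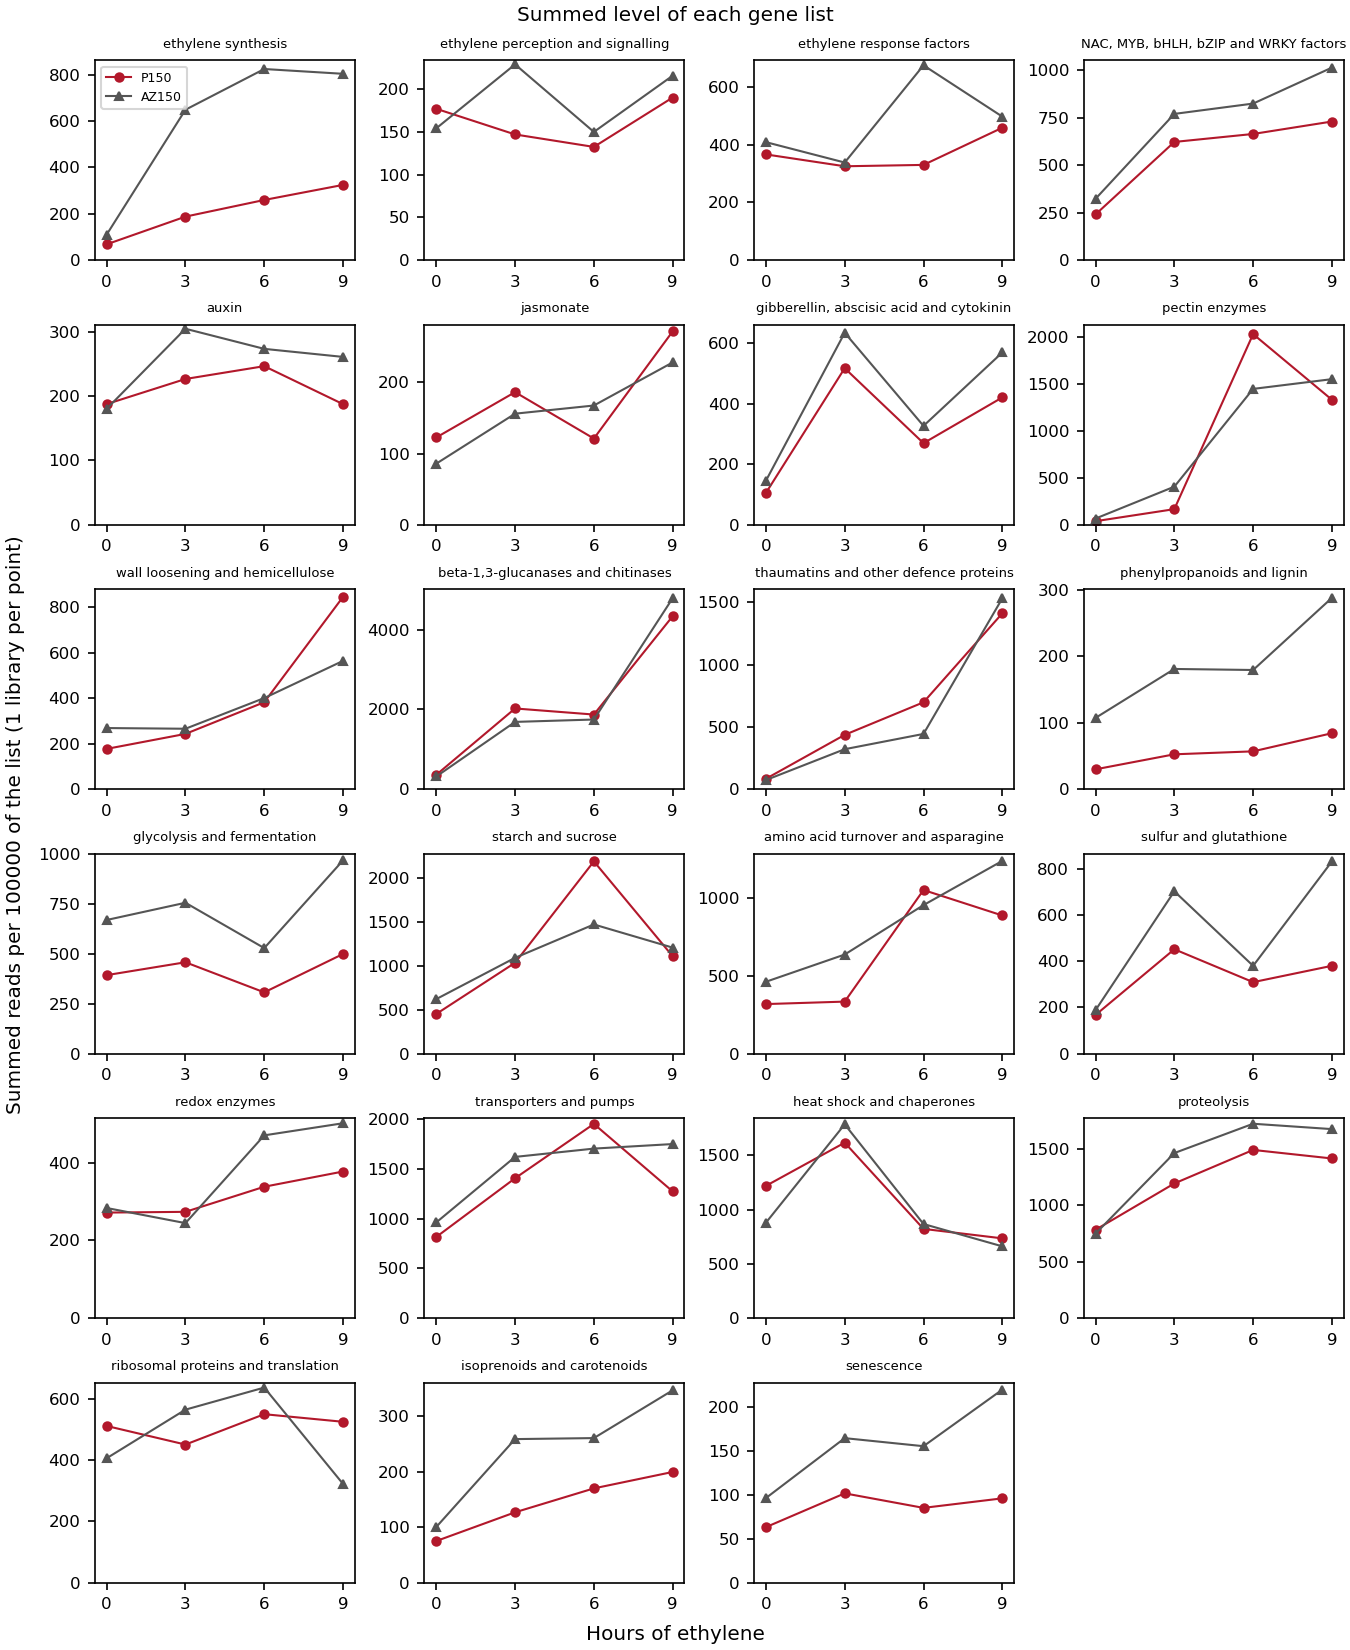
Summed level of each gene group, in reads per 100000, at 0, 3, 6 and 9 h (x axis) in P150 and AZ150, with 1 library per point. In P150 the beta-1,3-glucanases and chitinases went from 359.5 to 2023 per 100000 at 3 h and stood at 4335 at 9 h, while heat shock proteins and chaperones were at 1618 at 3 h and 736 at 9 h.

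Whether the 3 h response differed between the pedicel and the ripe AZ was tested directly with an exact test of the 4 read counts of each contig. Of 10546 contigs with at least 10 reads in the 4 libraries, 36 differed at a Benjamini-Hochberg adjusted p under 0.05, 17 relatively higher in the pedicel (0.161%) and 19 relatively lower (0.18%), and 548 had an unadjusted p under 0.05. With TMM scaling the split was 23 and 9. The test covers counting error only, since no group has a second library. Of the 6 named contigs relatively higher in the pedicel with the smallest p, 4 rose there and fell in AZ150. Named contigs are those that the study listed for a response in AZ150, so a change in AZ150 was favoured by the naming. The metallothionein-like contig CL1Contig5452 went from 48.4 to 114 per 100000 in P150 and from 92.6 to 51.4 in AZ150 (adjusted p = 1.2e-06). A contig named ethylene-responsive transcription factor 4 (CL1Contig15917) went from 31.7 to 55.9 in P150 and from 54.6 to 19.5 in AZ150 (adjusted p = 0.0022). A zinc finger contig matched to ZAT10 (CL1Contig9223), a stress-response repressor in Arabidopsis, went from 88.2 to 123 in P150 and from 86.7 to 37.2 in AZ150 (adjusted p = 0.0017). An amino acid permease (CL1Contig8180) went from 17.6 to 39.0 in P150 and from 20.5 to 1.77, a single read, in AZ150. The gibberellin 2-oxidase CL1Contig25316 rose in both tissues, from 11.8 to 358 in P150 and from 60.4 to 511 in AZ150, so that its relative rise was 3.60 times larger in the pedicel (adjusted p = 9.6e-05) while its level was higher in AZ150. Sucrose synthase CL1Contig13612 also rose in both, from 203 to 557 in P150 and from 297 to 537 in AZ150.

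Relatively lower in the pedicel was first the HSP70 contig CL1Contig12685, which rose in both tissues, from 311 to 465 in P150 and from 163 to 551 in AZ150 (adjusted p = 2.6e-10). The EBF2-matched F-box contig CL1Contig6838 stood at 60.1 and 51.9 in P150 and rose from 30.2 to 103 in AZ150 (adjusted p = 0.00013). This F-box type restrains EIN3. EgNug2 (CL1Contig11012), a nucleolar GTPase of ribosome assembly, fell from 33.9 to 20 in P150, a call lost with TMM scaling, and rose from 44.8 to 119 in AZ150 (adjusted p = 8.4e-05). A stearoyl-ACP desaturase (CL1Contig7507), which makes the oleic acid chain, fell from 38.9 to 8.99 in P150 and was at 134 and 135 in AZ150 (adjusted p = 0.00023). A pre-mRNA splicing factor (CL1Contig7951) fell from 47.0 to 10.5 in P150 and was at 29.2 and 35.5 in AZ150. EgZAT10/STZ (CL1Contig4711), a second ZAT10-type zinc finger, was at 108 and 96.9 in P150 and rose from 133 to 230 in AZ150 (adjusted p = 0.017, and 0.20 with TMM scaling). The 2 ZAT10-matched contigs thus stood on opposite sides of the difference.

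**Figure D5:**
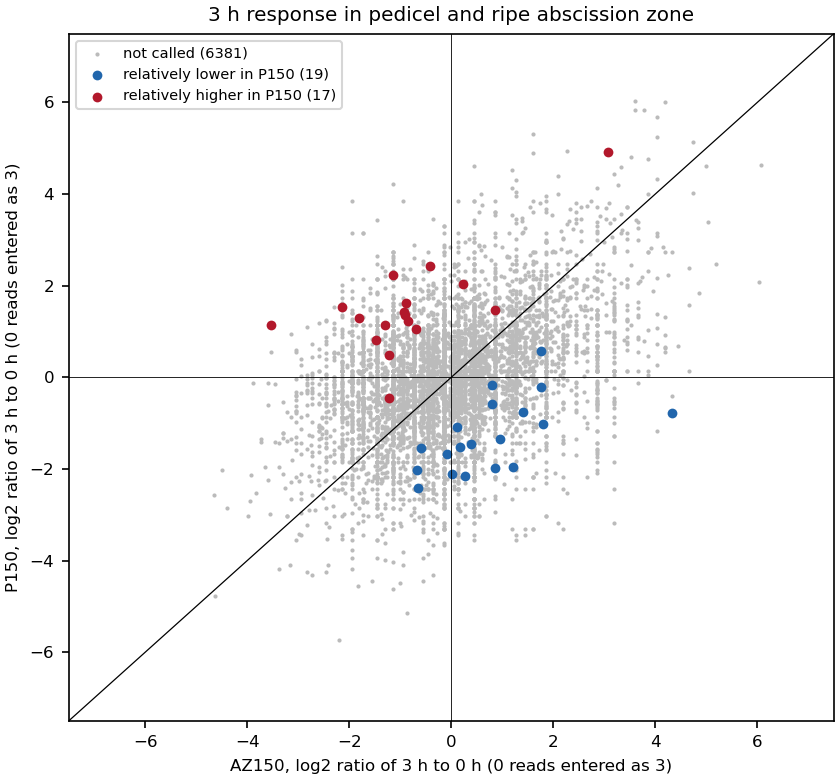
Log2 ratio of 3 h to 0 h for each contig in AZ150 (x axis) and P150 (y axis), with 0 reads entered as 3, for the 6417 contigs with more than 3 reads in a library of each tissue. Marked points are contigs called for the difference between the tissues, with those relatively higher in P150 above the diagonal and those relatively lower below it.

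Contigs that mark other tissues were also looked up in the pedicel libraries. Of 10 AZ contigs, 4 had a read in either P150 library, with a summed level of 4.97 per 100000 at 0 h and 24.5 at 3 h, against 60.4 and 238 in AZ150. The polygalacturonases EgPG4 (CL1Contig10800), which is not specific to the AZ, EgPGAZ1 (CL1Contig6920) and EgPGAZ2 (CL1Contig9409) were at 0 in both P150 libraries, as were 3 of 4 SEP3-like MADS-box contigs, and EgLAC7 (CL1Contig10326) had 0 and 3 reads. The study kept these polygalacturonases and EgLAC7 as candidates partly because AZ150 differed from P150 and AZ30 in these same libraries. A low level in P150 was thus favoured by their choice and is no independent check of tissue identity. The rise in this list was of the polygalacturonase-type contig CL1Contig8622 alone, whose part in other results was not tested. The polygalacturonase family contig CL173Contig1 (7 and 11 reads) and the MADS-box contig CL1Contig1663 (1 and 0) were not called. Mesocarp oil synthesis contigs had a read in 8 of 9 cases, with a summed level of 143 at 0 h and 115 at 3 h, 1 rise and 1 fall. The rise, named after its value was seen, was of an acyl carrier protein (CL1Contig22231) with 0 and 17 reads, at least 6.26-fold, and the fall was of the desaturase CL1Contig7507. Omega-3 fatty acid desaturase CL1Contig2984 (107 and 107 reads), stearoyl-ACP desaturase CL1Contig17590 (82 and 48) and enoyl reductase CL1Contig17272 (21 and 28) were not called. The rubisco small subunit (CL1Contig10754) had 18 and 6 reads and phloem protein 2 (CL1Contig3654) had 0 and 4, neither called. A chloroplast lumen protein contig (CL1Contig1984) had 12 and 10 reads and was not called. In whole tissue, fewer cells of a type and less RNA per cell cannot be told apart.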

How the data were processed

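The authors cut pedicel and AZ tissue, tagged the cDNA of 12 samples, sequenced them together on the 454 platform, assembled the reads and deposited raw counts of each library in each contig. Versions of their assembly and counting tools were not given in the sources used here. Of the values beside the counts, 17 columns were not used. Field libraries, deposited separately, were not analysed here. Counts were scaled to reads per 100000 of the library total. The 2 P150 libraries were compared with the two-sided Audic and Claverie test at an unadjusted p under 0.01, with the observed count in both tails. The study names this test and also a Bonferroni correction, which is given as an alternative. Ratios carry exact 95% intervals. The study's methods give the pedicel age once as 30 DAP, while the labels give 150 DAP, which was used. Differences between P150 and AZ150 used an exact noncentral hypergeometric test with Benjamini-Hochberg adjustment. No p was adjusted within a gene group. Software was R 4.3.3 with edgeR 4.0.16, and Python 3.11.15 with scipy 1.17.1 and pandas 2.3.3. The tests were tried on simulated counts with sampling error only, which does not cover variation between libraries.

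Contigs are named from the study's lists of contigs that responded in AZ150. Among 1050 annotated contigs, 123 share 52 RefSeq transcripts, and reads of one gene may be split between them. Named were the 12 rises and 12 falls with the smallest p, the 4 members of each list with the most reads, the 6 named contigs each way with the smallest p for the difference between tissues, and at most 2 unnamed contigs each way. Members and lists were chosen with earlier results of these data known. Alternatives tried were other scalings, adjustments, read minimums, tails and tests, and thinning both libraries to the depth of the 9 h library. Group counts without single members were added after seeing the data.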

Additional observations from a re-analysis of the deposited data

Results flagged for a closer look

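12 contigs are given here because their 3 h response differed between the pedicel and the ripe AZ by the exact test of the 4 counts. Values are differences of log2 ratios, P150 minus AZ150, and positive values mean a relatively higher response in the pedicel. The difference was 4.67 for the amino acid permease CL1Contig8180 (adjusted p = 0.0075) and 2.31 for a contig named ethylene-responsive transcription factor 4 (CL1Contig15917). It was 2.08 for the metallothionein-like CL1Contig5452 and 1.85 for the gibberellin 2-oxidase CL1Contig25316. For the zinc finger CL1Contig9223 it was 1.70, and for the sucrose synthase CL1Contig13612 it was 0.61 (adjusted p = 0.014). The permease value rests on 1 read in AZ150 at 3 h. The difference was -2.44 for the pre-mRNA splicing factor CL1Contig7951 (adjusted p = 0.011), -2.17 for EgNug2 (CL1Contig11012), -2.13 for the stearoyl-ACP desaturase CL1Contig7507, -1.98 for the F-box contig CL1Contig6838, -1.18 for the HSP70 contig CL1Contig12685 and -0.96 for EgZAT10/STZ (CL1Contig4711). With TMM scaling 11 of the 12 passed the same test, all but EgZAT10/STZ, and with a minimum of 20 reads all 12 did.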

How the results depend on the processing

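Of the pedicel calls (1665, with 800 higher and 865 lower), 980 passed Benjamini-Hochberg adjustment (529 and 451), 319 Bonferroni (178 and 141), and 307 the test after both libraries were thinned to the 9 h total (146 and 161), a depth at which fewer contigs can be called. The edgeR fit kept 18 (16 and 2). The count stayed within 1.5 times with the observed count in the lower tail only (1786, 921 and 865), TMM scaling (1685, 877 and 808), all reads as totals (1722, 994 and 728), totals without the 10 largest contigs (1668, 797 and 871), an exact binomial test (1523, 800 and 723) and at least 10 reads (1555, 763 and 792). TMM scaling moved AZ30 from 122 higher and 553 lower to 419 and 182, AZ150 from 369 and 238 to 303 and 343, and the tissue difference from 17 and 19 to 23 and 9, with 26 of 36 contigs called under both. The balance of the pedicel calls also depended on the setting. Falls outnumbered rises in the main form, without the 10 largest contigs, with at least 10 reads and after thinning. Rises outnumbered falls in the other forms given above for the pedicel. No list of named contigs changed direction with the scaling. Of 130 named contigs tested again, no called one changed sign, and 2 that were not called did with all reads as totals. With TMM, EgNug2 (CL1Contig11012) and CL1Contig17330 were no longer called, at log2 ratios of -0.71 and -0.43. With all reads as totals they stood at -0.62 and -0.34, enolase CL1Contig1598 at -0.35 was no longer called either, and lipoxygenase CL1Contig8074 was called at 0.91. No paired analysis was possible because each group has 1 library, and for that reason none could be left out in turn. Variation between palms, bunches or preparations of 1 group was not measured.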
